A study of Mus musculus with 31 samples.

Results

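Of 40685 H3K4me3 islands on chromosomes 1 to 19 of Nkx2-1-positive mouse lung tumors, 5787 also overlapped an island of H3K27me3 in both tumor types studied and are called bivalent here. Among them, 1181 overlapped no H3K4me3 island in tumors with Nkx2-1 deleted. These 1181 lost bivalent islands are the subject here, and the other 4606 are called kept bivalent islands. An island is a stretch of the genome in which reads of a chromatin immunoprecipitation cluster above background, and an overlap of 1 bp was enough. The members were chosen on the H3K4me3 and H3K27me3 lists, so their loss of H3K4me3 and their H3K27me3 are given as a description. H3K4me1, H3K27ac and the factor peaks played no part in the choice. The working name of the set, islands left with H3K27me3 only, did not hold for the other marks. In deleted tumors 829 of the 1181 overlapped H3K4me1 and 330 H3K27ac, and 289 (24.5%) overlapped neither.

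H3K4me3 marks promoters, most strongly those of active genes and of CpG islands. H3K27me3 is laid down by Polycomb repressive complex 2 and marks silenced genes, many of them developmental regulators. Where both are found together the chromatin is called bivalent, a state best known from promoters in stem cells that are kept silent and can later resolve to either mark. H3K4me1 marks enhancers and promoter flanks, and H3K27ac marks active promoters and enhancers. H3K27ac and H3K27me3 are modifications of the same lysine and cannot sit on the same histone tail. In whole tumors, 2 marks over 1 island can also come from different cells or alleles.

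All groups were lung adenocarcinomas of mice of mixed 129/B6 strain, aged 4 to 7 months, and differed in Nkx2-1 status, either positive or deleted. Nkx2-1 is a homeodomain factor of the lung lineage, and Foxa1 and Foxa2 are forkhead factors of endoderm-derived epithelia that were pulled down with 1 antibody. The labels give infection by adenovirus or lentivirus through the trachea and tamoxifen at 56 or 112 µg per g body weight for every sample, without saying which group received which. Tumor-initiating alleles, the allele used for deletion and the Cre driver are not given in the sources used here, and with lists of islands alone neither the tissue nor the loss of Nkx2-1 could be checked. Each histone group came from 1 male and 1 female mouse. The Nkx2-1 list (positive tumors) and the Foxa1/2 list of positive tumors came from males and the Foxa1/2 list of deleted tumors from females, so for Foxa1/2 sex and tumor type cannot be told apart. An Nkx2-1 library had the same input as the histone libraries from the male mouse with positive tumors, and by the pair letters in the labels the 4 marks of each mouse shared 1 input. The 2 deposited files of each of the 11 groups were identical, so every group is 1 pooled list without replicates. No p-value is given, and the 95% intervals (Wilson for shares) cover counting error only, since islands of the same tumors are not replicates. The number of the 19 autosomes that show a direction is given as a further description.

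Library depths are not given in the sources used here. Reads inside islands are given instead, although they also depend on how much of the genome was called. They came to 28.9 M in positive and 19.6 M in deleted tumors for H3K4me3. For H3K27me3 the totals were 18.5 and 19.8 M, for H3K27ac 45.7 and 31.2 M, and for H3K4me1 35.8 and 29.8 M. The lists of the 3 active marks thus held fewer reads in deleted tumors and the H3K27me3 list did not. H3K4me3 islands covered 104.3 Mb in positive and 64.0 Mb in deleted tumors, with 277 and 305 reads per kb of island. For H3K27ac the reads per kb were 157 and 137, for H3K4me1 109 and 99.1, and for H3K27me3 38.5 and 42.8. For H3K4me3 the lower sum thus went with less covered length and not with fewer reads per kb. Reads per kb of a list also depend on how many thin islands were called, so they do not measure depth. The part that depth plays in the losses below was not tested.

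The lost bivalent islands were narrow and thinly covered. Their median width was 1000 bp (quartiles 800 and 1400, range 200 to 6400), against 2000 bp (1200 and 3000, up to 28000) for kept bivalent islands. Their median read density, the reads of the authors' island caller per kb of island, was 60 (range 30.8 to 162) against 155 for kept bivalent islands. Lost islands without H3K27me3 in either tumor type (11345 non-bivalent lost islands) were wider than the lost bivalent ones, with a median of 1400 bp, and had a lower median density of 52.5 reads per kb. In reads, a lost bivalent island held a median of 58 (27 to 569) and a kept one 299.5. Width and density are properties of the list that chose the members, and no test was made of them.

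**Figure D1:**
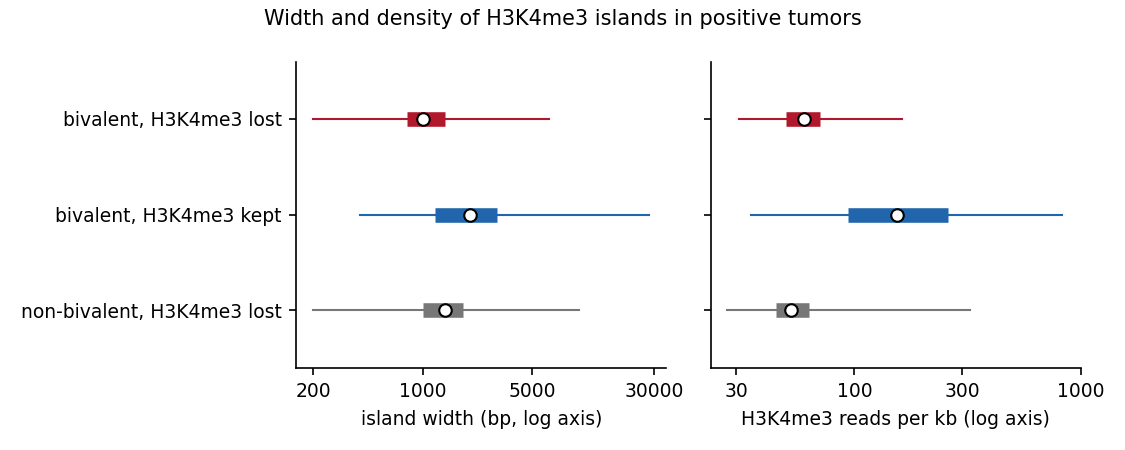
H3K4me3 island width in bp (left panel) and H3K4me3 reads per kb (right panel) in positive tumors, on log axes, for lost bivalent, kept bivalent and non-bivalent lost islands; circles are medians, thick bars the quartiles and thin lines the lowest to highest value. The lost bivalent islands lie left of the kept ones in both panels (medians 1000 against 2000 bp and 60 against 155 reads per kb), and close to the non-bivalent lost islands in density.

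Nearly all members came from the lower part of the density range. When all autosomal H3K4me3 islands of positive tumors were split into 10 groups of equal size by density, 1125 members (95.3%, 93.9 to 96.3) fell in the lowest 5 groups, which held 40.2% of all bivalent islands. Only 2 members lay above the lowest 6 groups. In the 3 densest groups 0 of 1293 bivalent islands were lost, which allows a share of up to 0.232%. This limit was taken as 3 islands over 1293 and is not a Wilson limit.

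Loss of H3K4me3 was less frequent at bivalent than at non-bivalent islands. It took 20.4% of bivalent islands (1181 of 5787, 19.4 to 21.5) and 34.1% of the 33241 islands without H3K27me3 in either tumor type (33.6 to 34.6), where 31.8% of all autosomal islands were lost. The share at bivalent islands was 13.7 points lower in this crude comparison, and lower on 19 of 19 autosomes. Islands with H3K27me3 in only 1 tumor type lay between, with 65 of 214 lost (30.4%, 24.6 to 36.8) where it was called in positive tumors and 344 of 1443 (23.8%, 21.7 to 26.1) where it was called in deleted tumors.

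At equal density most of that gap was gone. With the non-bivalent islands weighted to the density groups of the bivalent ones, their loss share came to 23.95%, so that bivalent islands were lower by a difference of -3.54 points (-4.64 to -2.45), again below 0 on 19 of 19 autosomes. In the thinnest group (27.5 to 46.25 reads per kb) 77.7% of bivalent and 88.0% of non-bivalent islands were lost, and in the next 68.2% and 79.5%. In the third group the shares were 61.5% and 65.6%, and the interval of their difference (-8.89 to 0.672 points) included 0. Loss then fell steeply in both classes, to 21.6% and 27.8% in the fifth group, 5.73% and 9.62% in the sixth, and 0.163% and 0.888% in the seventh. Loss thus followed density in both classes, with the bivalent share the lower one in each of these groups.

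The size of the difference depended on what was held equal. It was -8.87 points (-11.2 to -6.56) among islands without H3K27ac in positive tumors and -2.58 (-4.0 to -1.17) among those with it. At equal reads per island the order of these subsets was the opposite, with -2.25 (-4.46 to -0.0402) without and -6.68 (-8.10 to -5.26) with H3K27ac, and at equal density and width they were close, at -4.88 and -3.77. At equal density it was -4.20 among islands without any Nkx2-1 or Foxa1/2 peak. Over all islands it was -17.5 points at equal width, at equal reads per island -11.5, and at equal density and width -5.71. The direction was the same in each of these settings. Within single width classes it was not: the bivalent share was the higher one at 200, 400 and 600 bp. The shares were 67.4% and 64.5% at 400 bp and 65.7% and 62.1% at 600 bp. The intervals of the difference in these classes included 0. The subsets by H3K27ac and by factor peaks were chosen after seeing the data, and the groups held equal were formed anew within each.

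**Figure D2:**
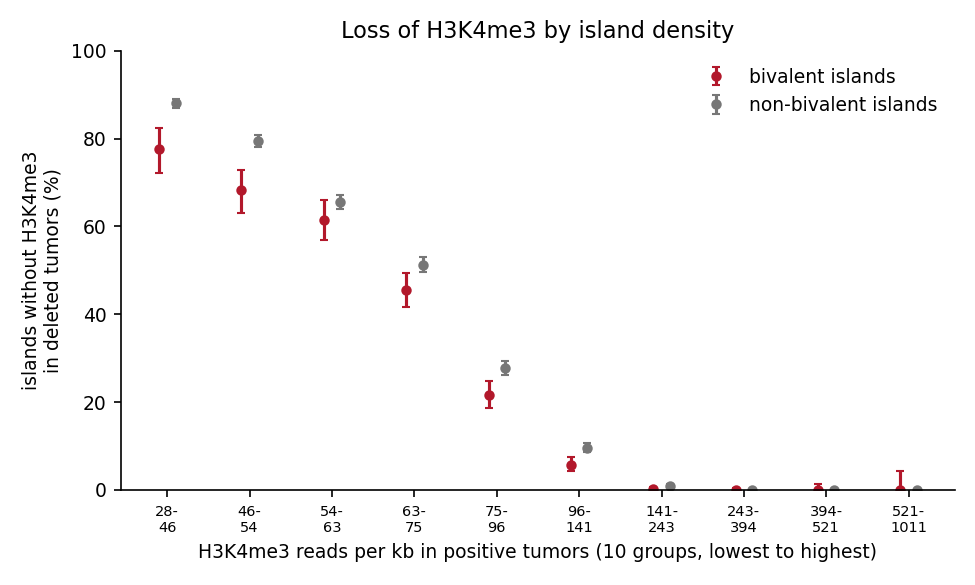
Share of H3K4me3 islands of positive tumors (vertical axis, percent, with 95% Wilson intervals) that overlapped no H3K4me3 island in deleted tumors, in 10 groups of rising H3K4me3 read density, for bivalent and non-bivalent islands. Both classes fall from most islands lost in the thinnest group (77.7% and 88.0%) to almost none from the seventh group on, with bivalent islands the lower in groups 1 to 7.

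The count of members rested on the thin end of the H3K4me3 list. With the upper 50% of the positive-tumor list by reads, 23 members were left and 0.730% of bivalent islands were lost. With that list cut by density, densest islands kept, to the covered length of the deleted-tumor list, 4 were left and the share was 0.151%. As the members were thin, these cuts removed most of them by construction. The nearest H3K4me3 island of deleted tumors lay a median of 21800 bp from a member, within 5 kb for 234 members (19.8%) and within 1 kb for 39 (3.30%). Such a distance was not particular to the members. The nearest kept H3K4me3 island of positive tumors lay a median of 22200 bp from members. From kept bivalent islands the nearest other one lay 20300 bp away. Just inside the rule stood 27 members with no more than 200 bp of H3K27me3 in at least 1 tumor type (median density 62.5), and just outside it 5 lost islands within 200 bp of H3K27me3 in both (median density 56.7). On the H3K4me3 side, 3 members lay within 200 bp of an H3K4me3 island of deleted tumors (median density 40.6), and 4 bivalent islands were kept through 200 bp of overlap (median density 81.7).

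H3K27me3 covered the members and their surroundings broadly in both tumor types. In positive tumors 1043 members (88.3%, 86.4 to 90.0) lay wholly inside an H3K27me3 island, and in deleted tumors 1091 (92.4%, 90.7 to 93.8). The shares were 77.3% and 84.5% for the wider kept bivalent islands. The H3K27me3 islands that held members numbered 1099 in positive tumors, with a median width of 13400 bp, against 6000 bp for all autosomal H3K27me3 islands. In deleted tumors the medians were 15600 and 5400 bp. The H3K27me3 islands that held kept bivalent islands were also wide, with medians of 11600 bp in positive and 13600 bp in deleted tumors. At the centre of the members H3K27me3 covered 94.9% in positive and 98.0% in deleted tumors, and 10 kb downstream in genome coordinates still 63.2% and 65.5%. For kept bivalent islands the cover at that distance was 57.6% and 62.5%. H3K27me3 is part of the rule, so these values describe its extent and not a change.

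**Figure D3:**
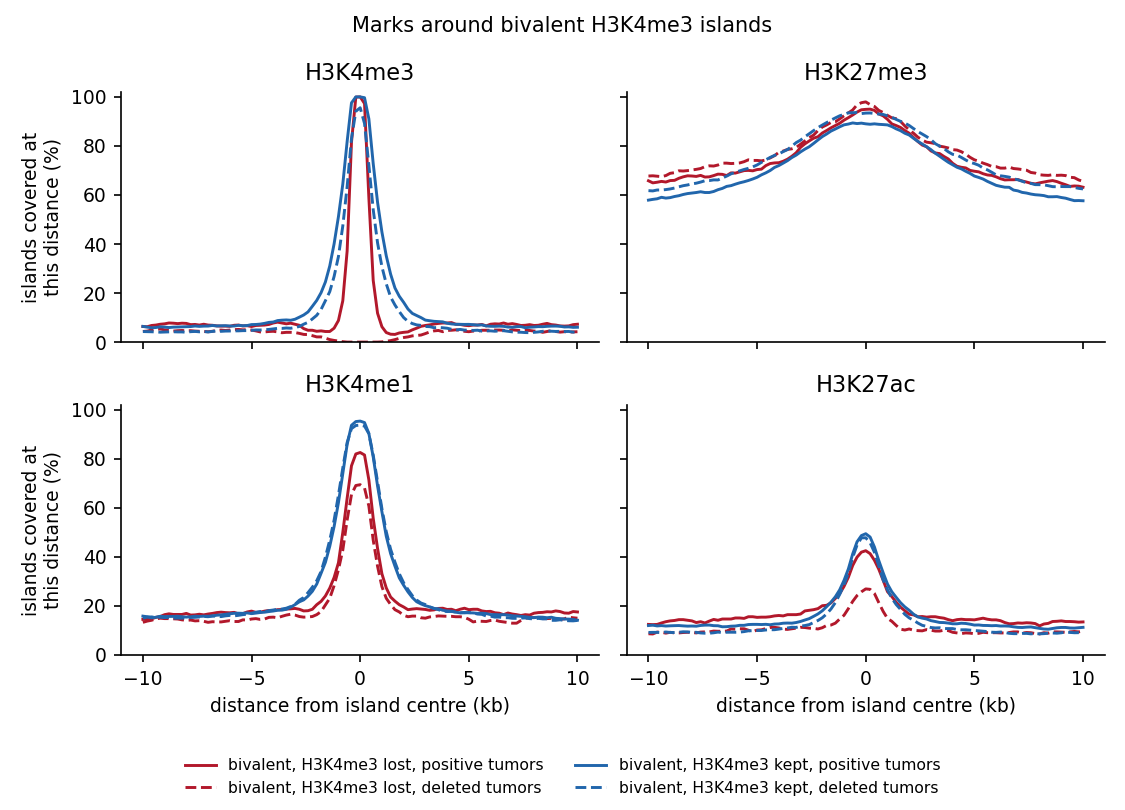
Share of islands covered by each mark (vertical axis, percent) at each distance from the island centre (horizontal axis, kb, 10 kb to each side), for lost (red) and kept (blue) bivalent islands in positive (solid) and deleted (dashed) tumors. At the lost bivalent islands the H3K27me3 lines stay above 60% across the whole window in both tumor types, while H3K4me1 and H3K27ac form narrow peaks at the centre that are lower in deleted tumors (82.6% to 69.4% and 42.5% to 26.9%).

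Members mostly stood alone in their H3K27me3 island. Of the 1099 H3K27me3 islands of positive tumors that held members, 1030 held 1, and 69 held at least 2. For 312 members (26.4%) the same H3K27me3 island also held a kept bivalent island, so that loss and retention of H3K4me3 were found within 1 Polycomb domain.

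The 2 H3K27me3 islands with most members, 6 each, and 1 of the 2 islands with 4 members were of that mixed kind. The island on chromosome 15 at 102570801 to 102972600 (coordinates of build mm9 throughout) was 401800 bp wide and held 6 members beside 9 kept bivalent islands. None of its 6 members overlapped H3K27ac in either tumor type, and all 6 overlapped H3K4me1 in both. The island on chromosome 6 at 52073001 to 52280200 spanned 207200 bp and held 6 members and 13 kept bivalent islands. There 1 member overlapped H3K27ac, in both tumor types, and all 6 overlapped H3K4me1 in both. A different pattern was seen on chromosome 1 at 33931401 to 33981000, where 4 members stood beside 2 kept islands. All 4 overlapped H3K27ac in positive tumors and 3 in deleted tumors, and H3K4me1 was found at 3 and then 1. The nearest genes are not named, because the annotation at hand is of another genome build.

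Among the marks that did not choose the members, both acetylation and H3K4me1 were less frequent in deleted tumors. H3K27ac overlapped 516 of 1181 in positive tumors (43.7%, 40.9 to 46.5) and 330 in deleted tumors (27.9%, 25.5 to 30.6), a change of -15.7 points (-17.9 to -13.6) that was negative on 19 of 19 autosomes. Of the 516 acetylated members, 194 lost the mark (37.6%, 33.5 to 41.9), where 8.28% of all autosomal H3K4me3 islands with H3K27ac lost it. Of the 665 others, 8 gained it (1.2%), where 12.8% of all such islands did. Losses outnumbered gains by 194 to 8. At the 4 members that remained with the H3K4me3 list at equal covered length the change was -50 points.

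H3K4me1 began from a higher level. It overlapped 983 members (83.2%, 81.0 to 85.3) in positive and 829 (70.2%, 67.5 to 72.7) in deleted tumors, a change of -13.0 points (-15.3 to -10.8), negative on 19 of 19 autosomes. It was lost at 179 of 983 members (18.2%), against 2.5% of all autosomal islands with it, and newly called at 25 of 198 (12.6%), against 20.3% of all islands without it. At the 4 members of the list at equal covered length it was 0. Most of the 1181 members therefore overlapped H3K4me1 in deleted tumors, where no H3K4me3 island was called at them.

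Kept bivalent islands showed little net change in either mark. Their H3K27ac share was 52.1% in positive and 51.5% in deleted tumors, with 291 losses among 2399 (12.1%) and 264 gains among 2207. Their H3K4me1 share was 96.8% and 95.3%. When the kept islands were weighted to the density groups of the members, the H3K27ac share in positive tumors differed by 2.51 points, with an interval (-2.03 to 7.05) that included 0. The change in H3K27ac was more negative at the members by -14.0 points (-17.3 to -10.8, 19 of 19 autosomes) and that in H3K4me1 by -11.4 points (-14.6 to -8.18, 18 of 19). Among islands that were acetylated in positive tumors, 37.6% of members and 15.8% of kept islands of equal density lost H3K27ac, a difference of 21.8 points (16.2 to 27.5). That difference was 11.6 points at equal width (6.11 to 17.2, 13 of 19 autosomes) and 15.01 at equal density and width (8.14 to 21.9). The difference in level also depended on what was held equal. In positive tumors the members were acetylated more often than kept islands at equal width, by 11.9 points (8.40 to 15.4), and at equal density and width, by 8.50 points (3.91 to 13.1). In deleted tumors the difference was -11.5 points at equal density (-15.8 to -7.15), -4.83 at equal density and width (-9.23 to -0.441) and -2.79 at equal width, where the interval (-6.11 to 0.540) included 0. The difference between the changes in H3K27ac was -14.7 points at equal width and -13.3 at equal density and width. The marks were measured in the same pairs of mice as the H3K4me3 that chose the members, so these changes do not come from separate animals.

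**Figure D4:**
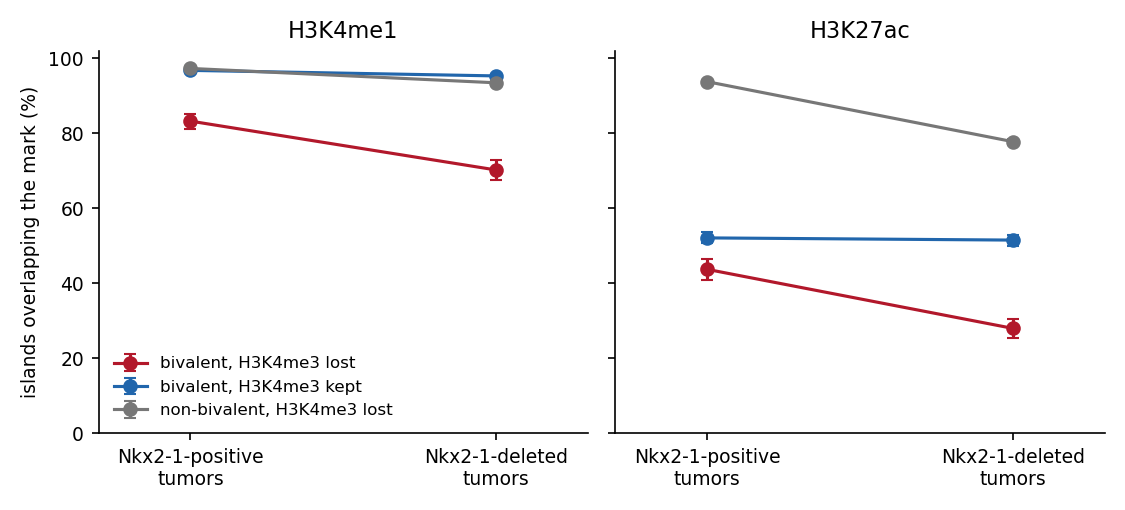
Share of islands that overlapped H3K4me1 and H3K27ac (vertical axis, percent, with 95% Wilson intervals) in positive and deleted tumors, for lost bivalent, kept bivalent and non-bivalent lost islands. Lost bivalent islands fall in both marks (83.2% to 70.2% and 43.7% to 27.9%), kept bivalent islands hardly move, and non-bivalent lost islands start near full coverage.

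Non-bivalent islands that lost H3K4me3 were acetylated far more often. H3K27ac overlapped 93.8% of them in positive tumors and 77.7% in deleted ones. The H3K4me1 shares were 97.3% and 93.5%. At equal density the point change in H3K27ac was close to that of the members: the difference of the changes was 1.32 points (-1.0 to 3.64), and the sign was positive on 12 autosomes and negative on 7. At equal width it was 3.41 points (1.03 to 5.79). With only the 23 members of the upper 50% of the H3K4me3 list by reads the sign turned, to -15.0 points. The loss among acetylated islands differed more: 37.6% of acetylated members and 18.3% of non-bivalent lost islands of equal density lost H3K27ac (difference 19.3 points, 15.1 to 23.6, 18 of 19 autosomes). For H3K4me1 the loss among marked islands was 18.2% and 5.11%.

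The loss of acetylation was not confined to the thinnest members. Among acetylated members it took 27.4% in the lowest density group, 28.6% in the second, 40.6% in the third, 48.0% in the fourth, 55.0% in the fifth (22 of 40) and 44.0% in the sixth (11 of 25). Non-bivalent lost islands went from 14.0% in the first to 26.2% in the sixth group. Kept bivalent islands ran between 3.57% and 22.6%. The members had the highest share in each of the 6 groups. In the second group their interval (21.2 to 37.3) overlapped that of the kept islands, and in the sixth group those of both other classes.

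**Figure D5:**
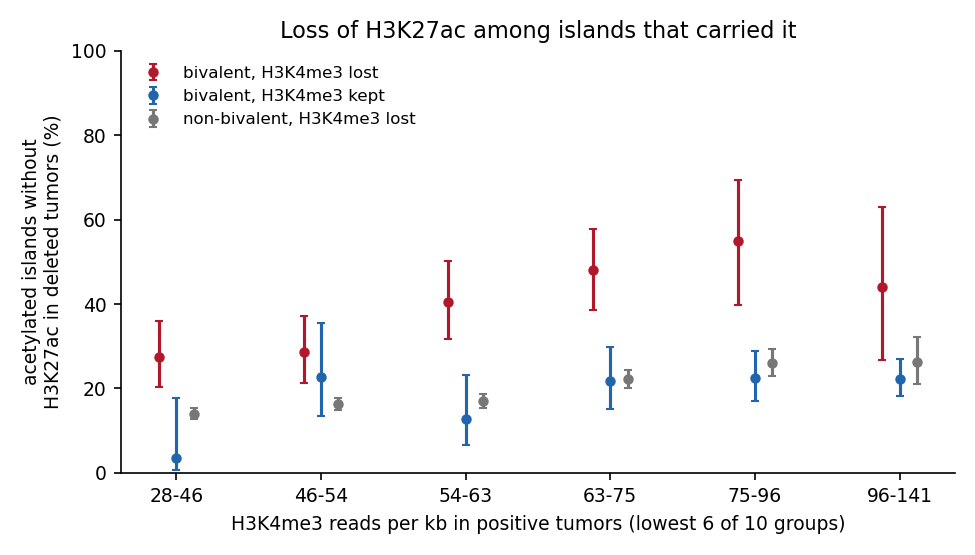
Share of islands with H3K27ac in positive tumors that had none in deleted tumors (vertical axis, percent, with 95% Wilson intervals) in the 6 lowest H3K4me3 density groups, for lost bivalent, kept bivalent and non-bivalent lost islands. Lost bivalent islands are highest in every group, from 27.4% to 55.0%.

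Taking both marks together, 824 members (69.8%) were in the same state in both tumor types. The most common course was H3K4me1 alone in both (442 members, 37.4%), followed by H3K4me1 with H3K27ac in both (257, 21.8%). Another 107 had neither mark in either tumor type. Among changes, 99 members went from both marks to H3K4me1 alone, 89 from H3K4me1 alone to neither, 48 from H3K27ac alone to neither, and 45 from both to neither. Members with neither mark rose in number from 127 (10.8%) to 289 (24.5%). Of the members that began with H3K27ac alone, 48 of 71 (67.6%, 56.1 to 77.3) ended with neither mark. Of those that began with H3K4me1 alone, 89 of 538 did (16.5%, 13.6 to 19.9). For members that began with both, which had 2 marks to lose and not 1, it was 45 of 445 (10.1%, 7.64 to 13.3). At kept bivalent islands these shares were 15.4%, 1.32% and 0.771%, in the same order.

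Wider members were more often acetylated. Members up to 800 bp overlapped H3K27ac in 28.0% of cases in positive and 14.6% in deleted tumors, and members of 1000 to 1200 bp in 46.0% and 28.9%. Members of 1400 to 1800 bp did so in 61.6% and 45.3%. Members above 1800 bp did so in 76.6% and 55.3%. The share was lower in deleted tumors in each of these classes. The rise with width was not particular to the members. In positive tumors the share went from 24.0% up to 800 bp to 67.8% above 1800 bp at kept bivalent islands. At non-bivalent lost islands it went from 80.5% to 99.0%.

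The widest member lay on chromosome 17 at 31200201 to 31206600, with 6400 bp and 569 reads (88.9 per kb), and was covered over its whole length by H3K27ac in both tumor types. The next widest, on chromosome 6 at 91938601 to 91944600, had H3K27ac over 80% of its length in positive and 43.3% in deleted tumors. The member on chromosome 2 at 84235001 to 84239400 had it over 50% and then nowhere, while H3K4me1 covered it fully in both. So of the 3 widest members 2 kept acetylation and 1 lost it. A pair of members on chromosome 11, at 107195801 to 107199800 and at 107310201 to 107314000, were fully acetylated in positive tumors and covered over 100% and 84.2% in deleted tumors. The sixth widest, on chromosome 10 at 39797201 to 39800800, kept H3K27ac over 88.9% of its length, while H3K4me1 covered 100% and then 44.4%.

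Of the 6 densest members of at least 1000 bp none overlapped H3K27ac in deleted tumors. The densest, on chromosome 11 at 69058601 to 69059600, had 162 reads per kb and H3K27ac over 80% of its length in positive tumors. On chromosome 14 at 30938201 to 30939200 a member of 146 reads per kb was fully acetylated in positive tumors and had no H3K4me1 in either. On chromosome 2 at 79210001 to 79211400 a member of 132 reads per kb lost both H3K27ac (85.7% of its length) and H3K4me1 (100%). These 3 had all been acetylated. On chromosome 13 at 36032201 to 36033200 H3K27ac went from 60% of the length to none, and H3K4me1 was absent in both. The member on chromosome 13 at 23597601 to 23598600 had neither mark in either tumor type, and that on chromosome 1 at 158718401 to 158719400 had only H3K4me1, in positive tumors, over 60% of its length. In all, 4 of the 6 lost acetylation and 2 had none to lose.

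Among members with H3K27ac in positive tumors only, the widest after the one on chromosome 2 was a member of 3400 bp on chromosome 11 (11594201 to 11597600), which kept H3K4me1 over its whole length. It was followed by a member of 3000 bp on chromosome 12 (37843001 to 37846000) and by 1 of 2600 bp on chromosome 19 (11408001 to 11410600). These last 2 were fully acetylated in positive tumors and overlapped no H3K4me1 in either tumor type. The 8 gains of H3K27ac were narrow. The widest were 2 of 1200 bp, on chromosome 17 at 78962001 to 78963200 with H3K27ac over 50% of its length and on chromosome 5 at 74020801 to 74022000 with H3K27ac over 100%. The latter lost H3K4me1 at the same time.

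Factor peaks were rare at the members. An Nkx2-1 peak of positive tumors overlapped 41 of 1181 (3.47%, 2.57 to 4.68) and a Foxa1/2 peak of positive tumors 35 (2.96%, 2.14 to 4.09). Both were found at 24 members, and 56 (4.74%) had a peak of any of the 3 factor lists. Kept bivalent islands had an Nkx2-1 peak in 5.69% and a Foxa1/2 peak in 3.56% of cases. At equal density the members differed from them by 1.44 points for Nkx2-1 (-0.0635 to 2.94) and 0.666 points for Foxa1/2 (-0.792 to 2.12), both intervals including 0. At equal width the difference was 0.730 points for Nkx2-1 (-0.640 to 2.10) and 1.33 points for Foxa1/2 (0.192 to 2.47, above 0 on 11 of 19 autosomes), so for Foxa1/2 the interval then excluded 0.

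Non-bivalent lost islands were a different class in this respect. Of them 46.6% had an Nkx2-1 peak and 39.3% a Foxa1/2 peak in positive tumors. Weighted to the widths of the members the shares were 37.65% and 30.8%, so the members were lower by differences of -34.2 points for Nkx2-1 (-35.6 to -32.7) and -27.9 points for Foxa1/2 (-29.2 to -26.5), both on 19 of 19 autosomes. Among islands acetylated in positive tumors, 5.43% of members and 44.3% of non-bivalent lost islands of equal width had an Nkx2-1 peak. The shortage of factor peaks at the members was thus also found among the acetylated ones. High shares were not particular to non-bivalent islands that were lost. Of the 21896 non-bivalent islands that kept H3K4me3, 49.0% had an Nkx2-1 peak and 32.4% a Foxa1/2 peak in positive tumors. Width was not held equal for these.

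Foxa1/2 was found at fewer members in deleted tumors. It overlapped 10 (0.847%, 0.461 to 1.55), of which 6 had it in both tumor types and 4 in deleted tumors alone. Of the 35 members with a peak in positive tumors, 29 had none in deleted tumors (82.9%, 67.3 to 91.9), where 49.4% of all autosomal H3K4me3 islands with such a peak lost it. Most non-bivalent lost islands with a peak lost it too: 4453 had it in positive tumors and 1483 in both. At kept bivalent islands these numbers were 164 and 83. At equal density the share of members with a peak in deleted tumors differed from that of kept bivalent islands by -1.94 points (-3.42 to -0.452). It was the lower one on 12 of 19 autosomes. At equal width the difference was -0.870 points (-1.69 to -0.0531, 14 of 19 autosomes). These differences rest on 10 members with such a peak. Sex differs between the Foxa1/2 groups as given above.

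The 41 members with an Nkx2-1 peak were mostly acetylated in positive tumors. H3K27ac overlapped 28 of them in positive tumors and 11 in deleted ones. For H3K4me1 the numbers were 41 and 39, and for Foxa1/2 24 and 3. The 4 with the highest Nkx2-1 score, the significance score of the authors' peak caller, shared 1 course: H3K4me1 over the whole island in both tumor types, H3K27ac in positive tumors only, and a Foxa1/2 peak in positive tumors only. The first lay on chromosome 3 at 107517801 to 107519600 (score 3113) and the second on chromosome 1 at 120811001 to 120811800 (score 3100). The third was on chromosome 2 (147015001 to 147017200, score 2889) and the fourth on chromosome 6 (18616001 to 18617400, score 2698). In positive tumors H3K27ac covered between 28.6% and 75% of their length.

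The members with the highest Foxa1/2 scores in deleted tumors took another course. The top one, on chromosome 6 at 54008801 to 54010400 (score 679), and the next, on chromosome 19 at 31825601 to 31826800 (452), were covered by H3K27ac and H3K4me1 over their whole length in both tumor types, as was that on chromosome 11 at 85768801 to 85769600 (205). The fourth, on chromosome 6 at 96994201 to 96995200 (112), had H3K4me1 in both and H3K27ac in neither. All 4 also had a Foxa1/2 peak in positive tumors.

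Position relative to H3K27me3 set members apart as well. The 1001 members that lay wholly inside H3K27me3 in both tumor types had H3K27ac in 40.4% of cases in positive tumors, against 62.2% of the 180 that reached outside it in at least 1. Nkx2-1 peaks overlapped 1.60% and 13.9%, and Foxa1/2 peaks of positive tumors 0.999% and 13.9%. The median widths were 1000 and 1200 bp, and width was not held equal in this comparison. H3K27ac was lower in deleted tumors in both sets, at 26.6% and 35.6%.

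Members were spread over all autosomes, from 26 on chromosome 16 and on chromosome 18 to 125 on chromosome 2. The share of bivalent islands lost ran from 15.3% to 24.4% between autosomes.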

How the data were processed

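Chromatin immunoprecipitation reads of mouse lung adenocarcinomas were processed by the authors with Bowtie, MACS 1.4.2 and SICER 1.1 on build mm9, per the submitters' processing notes, which give no role for each. The deposited island lists hold a read count per island, not scaled for depth, and their names give 200 bp windows and an FDR of 0.01, with gaps of 200 bp for H3K4me3 and H3K27ac and of 600 bp for H3K27me3 and H3K4me1. The deposited peak lists hold a score per peak from the authors' caller. Apart from the read sums and reads per kb of whole lists given above, counts and scores were used only within a list. The last base was taken from the end column. Samples were grouped by target and Nkx2-1 status from the labels. The 22 files form 11 groups of identical pairs, and the 9 inputs were not used here.

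Shares have Wilson intervals, and differences at equal density (10 groups) or width (200 bp steps up to 3000 bp) weight the comparison islands to the members or, for loss, to the bivalent islands. The overlap and weighting steps were checked on simulated data. Python 3.11.15, numpy 2.4.6, pandas 2.3.3 and matplotlib 3.10.9 were used. Named regions are the 6 widest members, the 6 densest of at least 1000 bp, the 4 widest with H3K27ac in only 1 tumor type (each way), the 4 with the highest Nkx2-1 and Foxa1/2 (deleted tumors) scores, and 3 H3K27me3 islands with most members (the third, 1 of 2 tied at 4 members, is the first in the list). The members, lists and tests were chosen with earlier results of these data known. Sequences and genes of the regions were not analysed here, since the tables at hand are of another build.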

Additional observations from a re-analysis of the deposited data

How the results depend on the processing

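Over 7 results 61 alternatives were computed, of which 34 stayed inside the reported 95% interval, 27 moved out of it, and 0 reversed a difference whose interval excluded 0. No paired analysis was possible because the 2 files of each group are identical and hold 1 pooled list, and for the same reason no replicate could be left out. With the upper 50% of the positive-tumor H3K4me3 list by reads (23 members), the loss share was 0.730%, the equal-density difference in loss -1.90 points, the H3K4me1 change -17.4, the H3K27ac change -21.7, its difference from non-bivalent lost islands -15.0, and the Nkx2-1 and Foxa1/2 differences -59.5 and -57.6. With that list cut by density to equal covered length (4 members) these were 0.151%, -0.458, 0, -50, -31.5, -20 and -10. The intervals of -31.5, -20 and -10 included 0. With the upper 50% of H3K27me3 by density the loss share was 18.9%, the H3K4me1 change -10.4 and the Foxa1/2 difference -26.3. The difference in loss was -17.5 at equal width, -11.5 at equal reads and -5.71 at equal density and width. It was -8.87 without H3K27ac, a subset chosen after seeing the data. Also added then were 50 density groups, islands without factor peaks and islands with H3K27ac, each inside the reported interval. The Nkx2-1 and Foxa1/2 differences were -21.1 and -16.4 with the upper 50% of peaks by score, -30.5 and -24.5 with the summit inside the island, and -42.4 and -35.6 at equal density. The cause of these shifts was not tested. The unknown depth limits every statement on thin islands, and the lower sum of reads in H3K4me3 islands of deleted tumors does not measure it.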
